A study of Mus musculus with 162 samples.

Results

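Among 162 single cells from mouse embryos of E17.5 to E18.5, 25 passed cells of the Htr3a Cre line held RNA of at least 3 of 6 microglial genes, and the line's 89 other passed cells held that of fewer or none of the 6. Htr3a encodes a serotonin receptor of interneurons, and in the line Cre is driven from that gene's regulatory sequence. The 25 cells were chosen by their counts: each had at least 10 counts in at least 3 of Cx3cr1, C1qa, C1qb, C1qc, Csf1r and Tyrobp, called the rule genes here. Cells that passed the submitters' quality control in the line but not this rule are the 89 others, of which 42 still had a count of a rule gene. Each sample is the cytosol of 1 cell drawn into a patch-clamp pipette, read as total RNA, and both groups are of the same line, age and preparation. The submitters gave both groups 9 type labels, named for neuron classes, origins or, for some cells, Undefined; none is a microglial label. The 48 cells not compared here are 8 failed cells of the Htr3a line and 40 cells of the Lhx6 and Nex Cre lines. Animals, litters and cultures are not named in the labels. Cells are therefore not replicates, each group stands for 1 sample, no p-value is given, and every comparison is a description of these cells.

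Microglia are the resident macrophages of the brain. They arise from yolk sac progenitors, enter the brain early in development and live among the neurons, whose debris and synaptic material they take up. Their survival depends on Csf1r, the receptor for the cytokines Csf1 and Il34. C1qa, C1qb and C1qc encode the chains of C1q, which starts the classical complement pathway, Tyrobp encodes the adaptor through which Trem2 signals, and Cx3cr1 is the receptor of the neuronal chemokine Cx3cl1. When activated, microglia release cytokines and chemokines such as Il1a, Tnf, Ccl3 and Ccl4.

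Levels are given as CPM, a gene's counts scaled to the same total in every cell. A difference is the mean over cells of log2(CPM + 1) in the 25 cells with microglial RNA minus that in the 89 other cells, and the pseudocount of 1 CPM makes it small for genes of low level. Pooled CPM are of counts summed over all cells of a group. Sequencing depth was close, with a median of 9389993 counts per cell (6015542 to 24836041) in the 25 cells and 10576360 (1710224 to 21437441) in the 89 others. The number of genes with a count was not. It ranged over 3168, 9170 and 14810 (lowest, median, highest) in the 25 cells and 2625, 5308 and 9510 in the 89 others, and with every cell thinned to 1710224 counts the medians were 8662 and 4758. A gene with a count in more cells tends to a higher mean log value, and the part of this gap in single results was not tested. Results are also given for summed counts and for gene-matched cells. These are the cells with 6500 to 9500 genes, 10 with microglial RNA and 23 others, with medians of 8086 and 7585 genes.

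**Figure D1:**
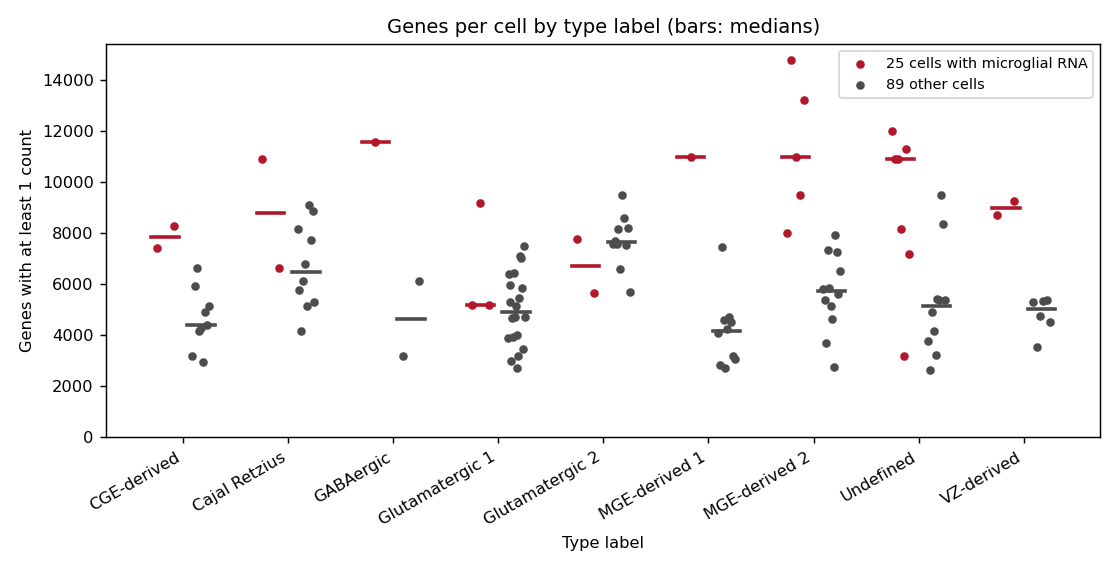
Genes with at least 1 count (vertical axis) in every cell, by the submitters' type label (horizontal axis). Red points are the 25 cells with microglial RNA, grey points the 89 others, and bars are medians; the overall medians were 9170 and 5308 genes.

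The values that chose the cells come first, as a description. Summed over the 6 rule genes, the 25 cells held 25.7, 1228 and 11305 CPM (lowest, median, highest), and the 89 others 0, 0 and 846 CPM. All 6 genes reached 10 counts in 10 of the 25 cells, 5 genes in 8 cells, 4 genes in 4 cells and 3 genes in 3 cells. Among the 89 others, 66 had none of the 6 at 10 counts, 19 had 1 and 4 had 2. The chosen cells thus ran from a trace of these transcripts to a large share. Just inside the rule, with 3 genes, were Glutamatergic 1 cell 19 at 780 CPM, MGE-derived 2 cell 13 at 80.2 CPM and CGE-derived cell 6 at 35.7 CPM. Just outside it, with 2 genes, were Undefined cell 11 at 846 CPM, Cajal Retzius cell 3 at 291 CPM, Glutamatergic 2 cell 12 at 288 CPM and Cajal Retzius cell 10 at 121 CPM. The cells just outside held as much of these transcripts as those just inside, but of fewer genes.

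The 3 C1q genes lie side by side on the minus strand of chromosome 4 (GRCm38): C1qb at chr4:136880129-136886187, C1qc at chr4:136889804-136893065 and C1qa at chr4:136895917-136898803. C1qb held 0, 417 and 4377 CPM in the 25 cells (lowest, median, highest), with a count in 23, against 0, 0 and 235 CPM in the 89 others, with a count in 10. C1qc had a count in all 25 cells, at 1.71, 291 and 2466 CPM, against 0, 0 and 617 CPM in the others, of which 7 had a count. C1qa held 0, 75.8 and 855 CPM in the 25 cells and 0, 0 and 229 CPM in the others. The ranges of all 3 overlapped between the groups, through single other cells such as Undefined cell 11, which held 617 CPM of C1qc, 229 CPM of C1qa and no C1qb. In the 17 cells with at least 10 counts of each of the 3, the counts of C1qb were 1.46 to 16.7 times those of C1qa (median 6.14) and 1.02 to 6.31 times those of C1qc (median 1.78).

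Csf1r, on chromosome 18, held 0.12, 188 and 2832 CPM in the 25 cells, all with a count, against 0, 0 and 179 CPM in the 89 others, of which 22 had a count. It was the rule gene most often seen outside the 25 cells. Tyrobp, on chromosome 7, held 0.25, 165 and 1215 CPM in the 25 cells and 0, 0 and 140 CPM in the others, with a count in 6 of the 89. Cx3cr1, on chromosome 9, was the rarest: 16 of the 25 cells had a count, at 0, 3.11 and 504 CPM, against 3 of the 89 others, at 0, 0 and 10.4 CPM. Across the 25 cells, which share the rule, the levels of C1qa, C1qb, C1qc, Csf1r and Tyrobp ranked alike, with Spearman's rho between 0.80 and 0.91 for each pair, and Cx3cr1 ranked less like them, at 0.37 to 0.57.

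**Figure D2:**
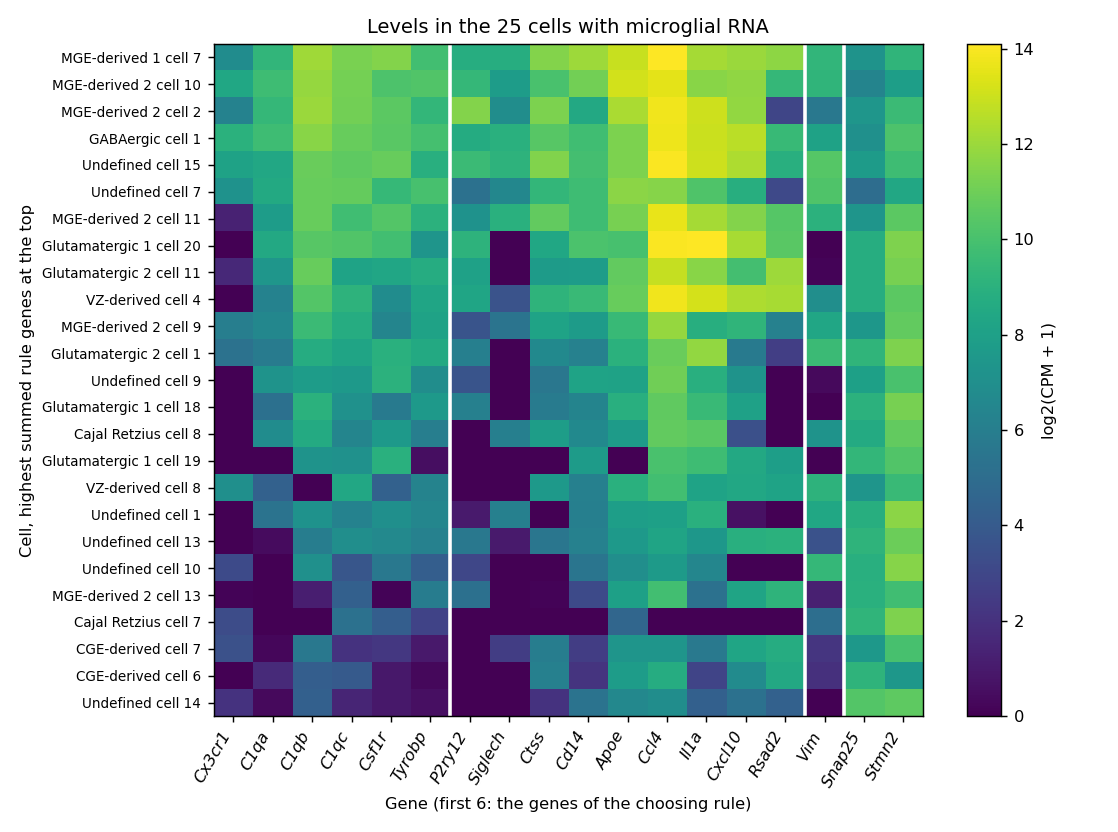
Levels as log2(CPM + 1), by colour, of 18 genes (columns) in the 25 cells with microglial RNA (rows, ordered by the summed rule genes). White lines part the 6 rule genes, 9 genes of microglia and their activation, the progenitor gene Vim and 2 neuronal genes; both neuronal genes have counts in every row, and Ccl4 in all rows but Cajal Retzius cell 7.

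The cells with microglial RNA were spread over all 9 type labels. Undefined held 7 of the 25 (28%, exact Clopper-Pearson 95% interval 12.1% to 49.4%) and 10 of the 89 others (11.2%, 5.52% to 19.7%). MGE-derived 2 held 5 and 12, Glutamatergic 1 held 3 and 20, and MGE-derived 1 held 1 and 10. CGE-derived held 2 and 9, Cajal Retzius 2 and 10, Glutamatergic 2 also 2 and 10, VZ-derived 2 and 6, and GABAergic 1 and 2. The MGE-derived labels made up 24% of the 25 cells (9.36% to 45.1%) and 24.7% of the 89 others (16.2% to 35%), and the intervals of every label overlapped. Without titles eH89 to eH108, described next, the MGE-derived share of the cells with microglial RNA was 9.09%. The intervals cover counting error only.

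The 25 cells did, however, sit together by the number in the sample's title, whose meaning the labels do not give. Of the 16 passed Htr3a cells titled eH89 to eH108, 14 held microglial RNA (87.5%), against 11 of the 98 with titles outside that range (11.2%). Those 14 took in both ends of the scale: the highest cell, MGE-derived 1 cell 7 at 11305 CPM, is eH96, and the lowest, Undefined cell 14 at 25.7 CPM, is eH108. The range was chosen after its values were seen. Whether the number marks a day, an animal or a plate is not stated, so it cannot be told apart from the presence of microglial RNA in those cells. Results without those titles are given for some genes and lists only, and others changed as well.

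**Figure D3:**
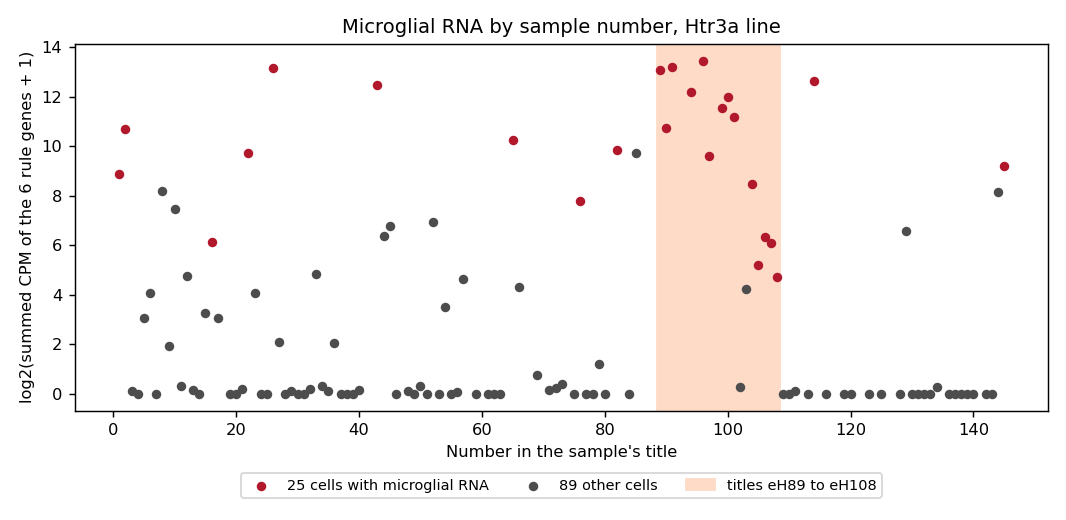
Summed level of the 6 rule genes as log2(CPM + 1) (vertical axis) against the number in the sample's title (horizontal axis). Red points are the 25 cells with microglial RNA and grey points the 89 others; the shaded range, eH89 to eH108, holds 14 red points and 2 grey ones.

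No cell outside the Htr3a line met the rule: 0 of the 34 passed cells of the Lhx6 and Nex lines, which allows a share of up to 8.82%, against 25 cells that met it and 89 that did not in the Htr3a line. None of the 14 failed cells met it either, which allows up to 21.4%. Without titles eH89 to eH108, 11 of the 98 passed Htr3a line cells met the rule (11.2%).

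Beyond the rule genes, 37.8% of the 15621 genes tested (10% or more of the cells of a group holding a count) were higher by a difference of at least 1 in the 25 cells with microglial RNA, and 0.115% were lower by as much. That is 5906 genes and 18 genes, and the median difference of all genes was 0.73. The filter lets in a gene seen in 3 of the 25 cells but asks for 9 of the 89 others, and with no filter 25.8% were higher with a median of 0.29. By summed counts the split was 15.7% higher and 11.7% lower with a median of -0.03, and in the gene-matched cells 10.8% were higher and 14.5% lower, with a median of 0.01. Without titles eH89 to eH108 43.3% were higher and 0.75% lower. The authors' normalized values gave a median of 1.10 and a pseudocount of 10 CPM gave 0.22, so each list below is to be set against the median of its own scale.

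Other genes known from microglia were higher as a group. Of 40 such genes, all with enough counts to be tested, 37 were higher by at least 1 in the 25 cells and none lower, and their median difference was 2.88 against 0.73 for all genes. Some of the 40, such as Ctss and Fcrls, passed the filter only through the 25 cells. Being near 0 in the others, such genes could not be called lower, so the lack of lower genes says nothing about them. In the gene-matched cells 32 of 40 were higher and 1 lower, with a median of 1.88 against 0.01, and by summed counts 37 were higher and 1 lower, with a median of 5.11. The 25 cells had a count in 5, 23 and 40 of the 40 genes (lowest, median, highest), against 0, 3 and 14 in the 89 others. Their summed level was 91.8, 1869 and 20967 CPM in the 25 cells and 0, 245 and 1726 CPM in the others, so the ranges overlapped. With the rule genes, they took 0.016%, 0.28% and 3.06% of a cell's counts in the 25 cells, against 0%, 0.026% and 0.173% in the others.

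Ctss, a lysosomal protease of macrophages, had counts in 21 of the 25 cells, with 0, 200.4 and 2897 CPM (lowest, median, highest), and in 4 of the 89 others, and its difference was 6.41. Fcrls, an Fc receptor-like gene of mouse microglia, differed by 5.78, with 426 pooled CPM in the 25 cells and 1.24 in the others. Laptm5, a lysosomal membrane protein of blood cells, differed by 5.46, with 382 pooled CPM against 2.38. Spi1, which encodes the transcription factor PU.1 that microglia need to form, was among the cleanest: 71134 counts in 22 of the 25 cells and 3 counts in all 89 others. Each of these genes was high in most of the 25 cells and at or near 0 in nearly all others.

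The genes of resting, mature microglia differed among themselves, and are named here after their values were seen. P2ry12, a receptor for ADP, had counts in 18 of the 25 cells (265 pooled CPM) and in 1 of the 89 others, which held 1 count, with a difference of 4.81. Siglech was seen in 13 of the 25 cells (110.9 pooled CPM) and 2 of the others. Tmem119, which in mice rises in microglia after birth, was seen in only 7 of the 25 cells, at 10.1 pooled CPM, and in 2 of the others. Among the genes of the list that were not higher by 1, Sall1 had 7.23 pooled CPM in the 25 cells and 8.43 in the others, and Csf2ra had 13.1 against 24.8 pooled CPM.

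Genes of the macrophages at the brain's borders and of blood monocytes were rarer. Of 18 such genes, 9 had too few counts to be tested, among them Pf4, Lyve1 and Ccr2, with at most 2 of the 25 cells holding a count of any of the 9. Of the 9 tested, 3 were higher and none lower, near the 37.8% of all genes, with a median difference of 0.67. By summed counts 6 were higher and 1 lower, with a median of 1.28 against -0.03, and in the gene-matched cells 3 of 5 were higher, with a median of 1.15 against 0.01. The 3 were Stab1, a scavenger receptor (2.77; 50.7 pooled CPM against 5.35), Dab2, an endocytic adaptor (1.95; 29.4 against 2.48), and Mrc1, the mannose receptor (1.16; counts in 7 of the 25 cells against 1 of 89). Without titles eH89 to eH108, the difference of Mrc1 was -0.019. The summed level of the 18 genes was 2.24, 76.8 and 1021 CPM in the 25 cells and 0, 5.62 and 1139 CPM in the others.

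The largest differences of all were in cytokines and chemokines. Of 24 genes of chemokines, complement and interferon responses, all tested, 22 were higher by at least 1 in the 25 cells and none lower, with a median difference of 4.49 against 0.73 for all genes. Some of the 24, such as Cxcl10, passed the filter only through the 25 cells and could not be called lower. Of all genes 37.8% were higher. Gene-matched cells had 21 of 24 higher, with a median of 3.58 against 0.01, and 10.8% of all genes higher. Without titles eH89 to eH108 the count was 22 with a median of 3.39, and by summed counts all 24 were higher. Their summed level was 224, 5533 and 57394 CPM in the 25 cells (lowest, median, highest), against 0, 100.4 and 977 CPM in the 89 others. The 2 genes that did not reach 1 were the complement genes C3 (0.94) and C4b (0.61).

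Ccl4, a chemokine on chromosome 11, had the largest difference of any gene, 10.15. It held 0, 1883 and 17220 CPM in the 25 cells, with a count in 24, and 0, 0 and 335 CPM in the 89 others, with a count in 18. Its neighbour Ccl3, at chr11:83647844-83649355 beside Ccl4 at chr11:83662584-83664683, differed by 8.93, with 2468 pooled CPM in the 25 cells and 4.69 in the others. Il1a, a cytokine of activated myeloid cells, differed by 9.17, with 0, 851 and 17567 CPM in the 25 cells, 24 of them with a count, and 0, 0 and 105.3 CPM in the others, 12 of them with a count. The cell without Ccl4 was also the one without Il1a: Cajal Retzius cell 7, with 70.2 CPM of rule genes and 11 of the 40 other microglia genes. The 2 ranges overlapped for both genes through a few other cells, of which Cajal Retzius cell 3 and cell 10, just outside the rule, held 335 and 199 CPM of Ccl4.

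Cxcl10, an interferon-induced chemokine, differed by 8.07, with counts in 23 of the 25 cells and 3 of the 89 others. Ccl5, another chemokine, differed by 7.18, with 549 pooled CPM in the 25 cells and 0.20 in the others. Rsad2, which encodes the antiviral protein viperin, differed by 6.19 and had counts in 19 of the 25 cells, against 4 of the others. Cxcl10 and Rsad2 were thus seen in fewer of the 25 cells than Ccl4 and Il1a. Named after their values were seen, Tnf had counts in 21 of the 25 cells (350 pooled CPM) and in 5 of the others (2.38), and Nfkbia, the inhibitor induced by NF-kB, had 917 pooled CPM in the 25 cells and 68.5 in the others.

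Because these genes were high together, the 250 bases before their RefSeq start sites (GRCm38.p6) were searched on both strands for 3 motifs. They were a core of the NF-kB element (GGGA, any 2 bases, TTCC), the core of the interferon-stimulated response element (TTTC, any 2 bases, TTTC), and GAGGAAGT, the form of the ETS element bound by PU.1. The NF-kB core was found in 4 of 18 genes of the chemokine, complement and interferon list that had a promoter entry (B2m, Cxcl10, Ifitm3, Nfkbia) and in 1.36% of all 27025 genes. The interferon core was found in 4 of those 18 genes (B2m, Cxcl10, Ifit3, Isg15) and in 3.46% of all genes, and GAGGAAGT in none of the 18 and in 2.79% of all. Of the 3 rule genes with an entry, C1qc held GAGGAAGT. No motif was found in the 10 pan-neuronal genes with an entry. A match is a description of these letters only, and no factor's binding was measured. The upstream sequences of 4 genes are shown, with the matches in capitals (as the reverse complement where the match is on the other strand), since they are a rule gene and 3 genes of the cytokine and interferon responses described above; all are on the minus strand and written 5′ to 3′. Cxcl10 is chr5:92348890-92349139, with an interferon core and then an NF-kB core that do not overlap, Nfkbia is chr12:55492648-55492897, with an NF-kB core, Rsad2 is chr12:26456453-26456702, with an interferon core, and C1qc is chr4:136893066-136893164, cut to the 99 bases outside any annotated exon, with GAGGAAGT.
Cxcl10: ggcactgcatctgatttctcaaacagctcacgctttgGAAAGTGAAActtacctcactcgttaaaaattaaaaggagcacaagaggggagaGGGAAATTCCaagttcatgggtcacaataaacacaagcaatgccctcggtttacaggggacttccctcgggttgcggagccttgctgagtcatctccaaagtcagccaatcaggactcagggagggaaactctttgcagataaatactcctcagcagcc
Nfkbia: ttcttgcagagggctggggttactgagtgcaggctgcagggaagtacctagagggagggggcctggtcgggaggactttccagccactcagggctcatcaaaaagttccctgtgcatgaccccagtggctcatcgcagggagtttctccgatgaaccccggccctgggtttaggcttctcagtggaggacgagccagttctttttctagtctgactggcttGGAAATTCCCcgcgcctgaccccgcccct
Rsad2: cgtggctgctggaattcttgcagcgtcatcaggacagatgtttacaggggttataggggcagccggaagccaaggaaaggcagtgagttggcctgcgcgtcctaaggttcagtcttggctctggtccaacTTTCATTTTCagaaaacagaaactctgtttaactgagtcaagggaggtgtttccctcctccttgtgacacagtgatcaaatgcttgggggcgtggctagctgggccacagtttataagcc
C1qc: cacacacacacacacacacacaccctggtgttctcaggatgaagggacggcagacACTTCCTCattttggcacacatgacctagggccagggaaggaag

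Lysosome and phagocytosis genes were also higher. Of 25 measured, 23 were higher by at least 1 in the 25 cells and none lower, with a median difference of 2.88. Of all genes 37.8% were higher and 0.115% lower, with a median of 0.73. Between gene-matched cells the count was 15 of 25 with 1 lower, at a median of 1.51 against 0.01. There 10.8% of all genes were higher and 14.5% lower. The summed level was 6428, 18791 and 84724 CPM in the 25 cells and 3014, 8204 and 21596 CPM in the 89 others, which also express these genes. Apoe, the lipid carrier that microglia and astrocytes secrete, differed by 7.85, with counts in 24 of the 25 cells (1521 pooled CPM) and in 26 of the others (23.6). Ctsz and Ctsd, lysosomal proteases, differed by 5.65 and 4.35, though Ctsd shares 32.4% of its 50-base stretches with Gm49369 and its counts are uncertain. Lgals3, which encodes galectin 3, differed by 5.31.

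Further genes with the largest differences belonged to no list. Cd14, a co-receptor for bacterial lipopolysaccharide on chromosome 18, had 136941 counts in 24 of the 25 cells and 3 counts in all 89 others, a difference of 7.13. Selenop, a selenium carrier, differed by 6.43, Tubb6, a beta tubulin, by 6.20, and Arpc1b, a subunit of the actin-branching Arp2/3 complex, by 5.84. Arpc1b was also seen widely outside the 25 cells, with counts in 24 of the 25 cells and 48 of the 89 others. Bcl2a1b and Gm29094, at 6.53 and 6.10, overlap on the same strand of chromosome 9 and share 79.2% and 92.7% of their 50-base stretches with other genes, so their counts are uncertain. In all, 579 genes met the naming rule for higher genes, of which the 15 with the largest difference are named.

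**Figure D4:**
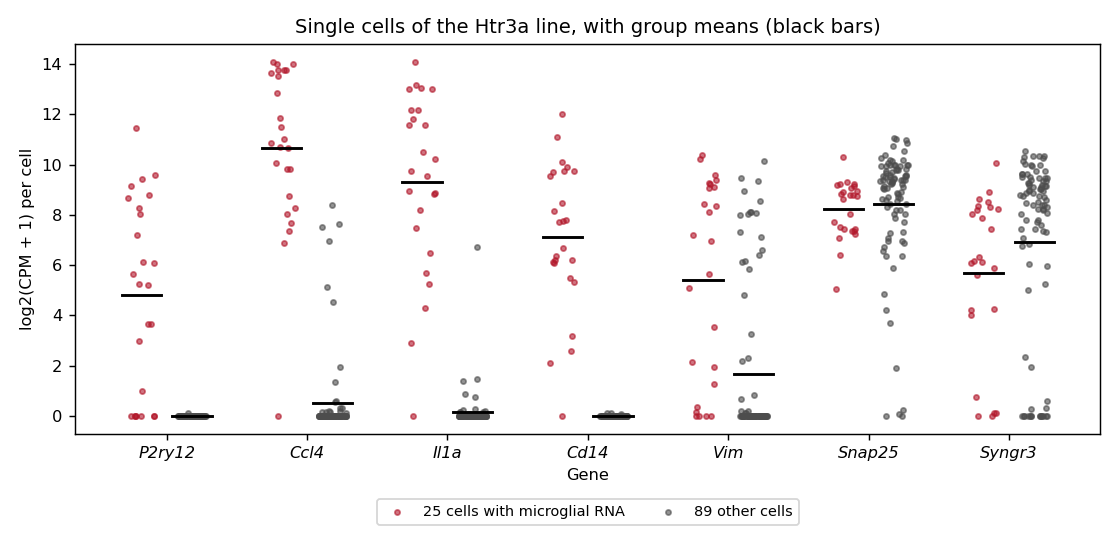
Level as log2(CPM + 1) (vertical axis) of 7 genes (horizontal axis) in each of the 25 cells with microglial RNA (red, left) and the 89 others (grey, right), with group means as black bars. P2ry12, Ccl4, Il1a, Cd14 and Vim are at 0 in most grey points, and of these genes Vim has counts in the most grey points. Snap25 and Syngr3 are as high in grey as in red or higher.

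Neuronal transcripts were present in all 25 cells. Of 17 pan-neuronal genes 2 were higher by at least 1 in the 25 cells and none lower, and the median difference was -0.05, below the 0.73 of all genes; 13 of the 17 lay below that median. In the gene-matched cells 6 of 17 were lower and none higher, with a median of -0.76 against 0.01, and by summed counts 3 were lower and 1 higher, with a median of -0.44 against -0.03. Of all genes 14.5% were lower in the gene-matched cells and 11.7% by summed counts. Without titles eH89 to eH108 4 of the 17 were higher and 1 lower, with a median of 0.005 against 0.83. There 43.3% of all genes were higher and 0.75% lower. The summed level of the 17 genes was 1404, 6788 and 14129 CPM in the 25 cells (lowest, median, highest) and 2782, 9865 and 21519 CPM in the 89 others. Each of the 25 cells had counts in 11 to 17 of the 17 genes. The 2 higher ones were the neurofilament genes Nefl (1.93) and Nefm (1.70), and both were lower, at -0.76 and -0.86, in the gene-matched cells.

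Genes of neuron classes had medians below that of all genes in the 25 against 89 cells, but not in every gene-matched list. In the glutamatergic list 4 of 13 genes were higher (median 0.65), in the GABAergic list 1 of 8 (median 0.40) and in the list of interneurons of the medial ganglionic eminence 2 of 12 (median 0.13), with none lower. The caudal ganglionic eminence list had 2 higher and 2 lower of 9, and the Cajal-Retzius list 0 higher and 1 lower of 10. By summed counts the medians of these lists were -0.23, -0.96, -1.36, -0.42 and -0.08, so their direction turned with the scale. In the gene-matched cells the medians were -0.047 (glutamatergic), 0.52 (GABAergic), 0.26 (medial eminence), 0.19 (caudal eminence, 4 of 9 higher and none lower) and -0.17 (Cajal-Retzius), against 0.01 for all genes. Without titles eH89 to eH108, 43.3% of all genes were higher and 0.75% lower, with a median of 0.83. There 5 of 8 GABAergic genes were lower (median -1.20) and 9 of 10 Cajal-Retzius genes were higher (median 1.34). Of the glutamatergic genes 7 of 13 were higher (53.8%, median 1.10). The mix of type labels also changed there, with MGE-derived labels in 9.09% of the cells with microglial RNA against 24% of all 25. Its part in these counts was not tested. Reln, the secreted glycoprotein of Cajal-Retzius cells and a member of the caudal eminence and Cajal-Retzius lists, differed by -1.38, with counts in 21 of the 25 cells and 64 of the 89 others. In gene-matched cells its difference was 0.19.

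Neurexin genes, whose splicing the study's title names, encode presynaptic adhesion proteins. Nrxn2 had a count in 22 of the 25 cells and in 70 of the 89 others, with 28.7 and 35.8 pooled CPM and a difference of 0.72. Nrxn3 had a count in 19 of the 25 cells and in 60 of the others, with 98.7 and 245 pooled CPM and a difference of -0.31. Neither reached 1 in either direction.

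Progenitor and dividing-cell genes were higher in the 25 cells. Of 12 genes of ventricular zone progenitors 8 were higher and none lower (median 1.47), and of 16 proliferation genes 15 were higher and none lower (median 1.86). Of all genes 37.8% were higher and 0.115% lower, with a median of 0.73. Gene-matched cells had 7 of 12 and 8 of 16 higher, with medians of 1.18 and 1.04 against 0.01. There 10.8% of all genes were higher. Fabp7, a fatty acid binding protein of radial glia, differed by 3.79 and Vim, their intermediate filament, by 3.77. Vim had counts in 21 of the 25 cells and 27 of the others, and macrophages express it as well. Mcm2, a subunit of the helicase that starts DNA replication, was seen in 11 of the 25 cells and 2 of the others, a difference of 2.50. It passed the filter only through the 25 cells and could not be called lower. Hmgb2, at 3.28, shares 18.7% of its 50-base stretches with other genes. The summed proliferation level was 1876, 3015 and 9368 CPM in the 25 cells and 425, 3351 and 15861 CPM in the others, and the median number of these genes with a count was 8 against 3 of 16. By summed counts 11 of 16 were higher, against 15.7% of all genes.

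Markers of other brain cells differed with the scale. Of 14 endothelial and mural genes tested none reached 1 in either direction (median 0.42, below that of all genes), with a summed level of 0, 7.79 and 276 CPM in the 25 cells and 0, 0.068 and 769 CPM in the 89 others; Cldn5 had a count in 1 of the 25 cells. Of 7 astrocyte genes 1 was higher (Aldoc, 1.46), and of 9 oligodendrocyte lineage genes 3 were (Mbp 1.96, Olig1 1.87 and Cnp 1.79), against 37.8% of all genes. Cnp was at -1.08 in the gene-matched cells. Of 6 erythrocyte genes none was higher and Hbb-bs, a globin gene with the near copy Hbb-bt, was lower (-1.03), with counts in 8 of the 25 cells and 45 of the others. By summed counts 8 of the 14 endothelial and mural genes were higher (median 1.10) and 6 of the 9 oligodendrocyte lineage genes (median 1.30), with none lower in either list, against a median of -0.03 for all genes.

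Immediate early and heat shock genes were split. Of 14, 7 were higher (50%) and none lower, with a median difference of 1.07, against 37.8% higher and a median of 0.73 for all genes. In the gene-matched cells 2 were higher and 4 lower, with a median of -0.049 against 0.01. By summed counts 4 were higher and 2 lower, with a median of 0.05 against -0.03. Atf3, a stress-induced transcription factor that macrophages also use, differed by 4.22, with 272 pooled CPM in the 25 cells and 28.2 in the others. Dusp1 (2.74), Junb (2.71) and Jun (1.91) followed, and Jun was lower by summed counts (-0.45). Fos, the classical activity gene, had 126.8 pooled CPM in the 25 cells and 476 in the others, a difference of -0.79.

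Among signals between neurons and microglia and their receptors 6 of 16 genes were higher and none lower, near the 37.8% of all genes, with a median difference of 0.46. Leaving out titles eH89 to eH108, 8 of 14 were higher, with a median of 1.47 against 0.83, and in the gene-matched cells 2 of 15 were higher and 3 lower, with a median of -0.15. Csf1, a ligand of Csf1r, was the highest at 3.04, with 61.4 pooled CPM in the 25 cells and 2.85 in the others. Sirpa, the receptor on phagocytes for Cd47, differed by 2.44. Tgfbr1, a receptor for TGF-beta, differed by 2.55 and Gas6, a ligand of the phagocytic receptors Axl and Mertk, by 1.94; these last 2 were at -0.15 and -2.03 in the gene-matched cells. The neuronal ligands Cx3cl1 and Cd200 had 37.9 and 601 pooled CPM in the 25 cells and 80.7 and 973 in the others.

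**Figure D5:**
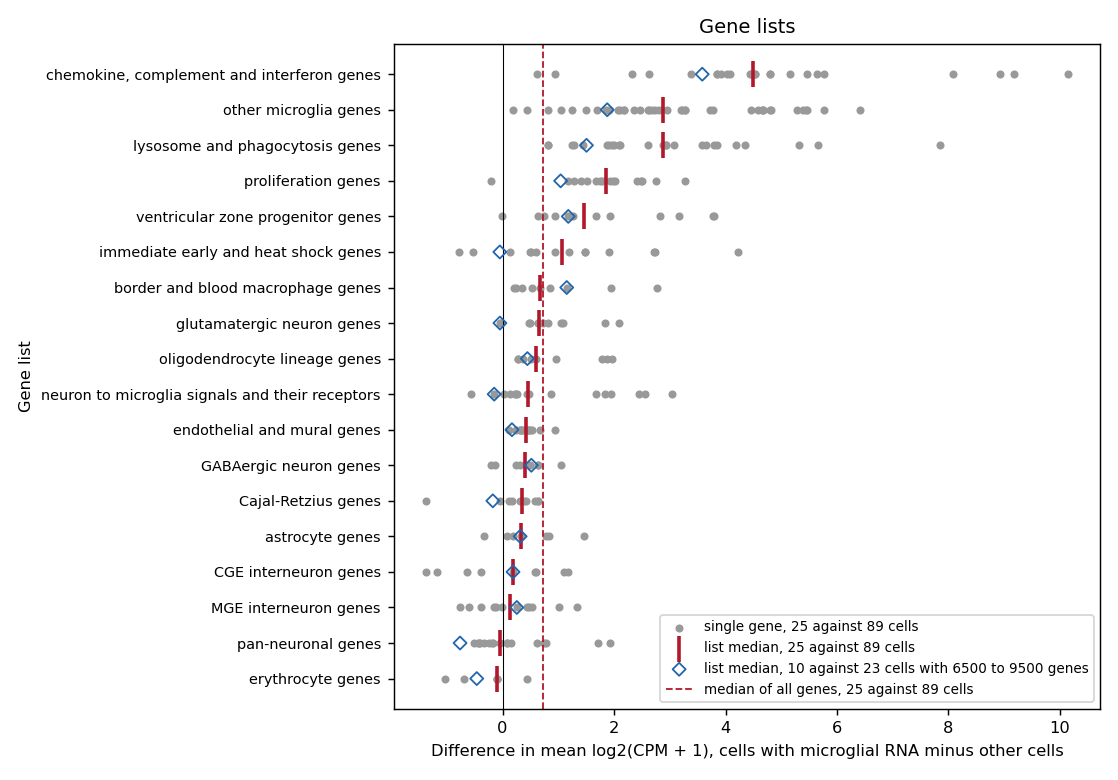
Difference in mean log2(CPM + 1), 25 cells with microglial RNA minus 89 others (horizontal axis), for each tested gene (grey points) of 18 lists (vertical axis), with the list median (red bar), the median among 10 and 23 cells with 6500 to 9500 genes (blue diamond) and the median of all genes, 0.73 (dashed line). The chemokine, other microglia and lysosome lists have medians of 4.49, 2.88 and 2.88, and the pan-neuronal list -0.05.

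Lower genes were few on the main scale: 18 passed a difference of -1, and 112 met the naming rule for lower genes. They were also few with a pseudocount of 10 CPM (0.038%) and with the authors' normalized values (0.231%), but not on every scale. By summed counts 11.7% of all genes were lower and 15.7% higher. In the gene-matched cells 14.5% were lower and 10.8% higher. Among those named by the rule the largest was Cdc7, a kinase of DNA replication, at -1.54, with 23.6 pooled CPM in the 25 cells and 79.4 in the others. Syngr3, a synaptic vesicle protein, had counts in 23 of the 25 cells and 75 of the others, with 207 and 458 pooled CPM (-1.23). Tmem59l (-1.18), Tmem130 (-1.16), Sema6a, a guidance protein (-1.12), Sec61a2, a translocon subunit (-1.12), Slc7a4 (-1.02) and Vps9d1 (-1.01) were also lower, and Rab3b, a vesicle GTPase, stayed under the threshold at -0.97. All of these ranges overlapped, and among the MGE-derived 2 cells alone Cdc7 and Sec61a2 were instead higher, at 1.17 and 1.24.

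Across the 25 cells other transcripts followed the amount of rule-gene RNA. Spearman's rho with the summed rule genes was 0.92 for the summed other microglia genes, 0.90 for the lysosome genes and 0.91 for the chemokine, complement and interferon genes. It was -0.51 for the pan-neuronal genes and -0.55 for the glutamatergic genes. It was 0.18 for the number of genes with a count and 0.05 for the proliferation genes. These are descriptions over 25 cells whose levels share 1 total each, so a transcript that takes more of the counts leaves less for the rest. The 8 single genes that ranked most like the rule genes over the 25 cells were Apoe, Ccl4, Cd14, Selenop, Ccl3, Anxa3, Fcer1g and Arhgdib.

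The cells at the ends of that order show the range. MGE-derived 1 cell 7 held 11305 CPM of rule genes, 39 of the 40 other microglia genes, 17220 CPM of Ccl4 and 2938 CPM of pan-neuronal genes. MGE-derived 2 cell 10 held 9566 CPM of rule genes, all 40 of the others and 1404 CPM of pan-neuronal genes, the lowest of the 25. At the other end, Undefined cell 14 held 25.7 CPM of rule genes, 23 of the 40 others, 118 CPM of Ccl4 and 8190 CPM of pan-neuronal genes. Undefined cell 1, at 477 CPM of rule genes, held 14129 CPM of pan-neuronal genes, the highest of the 25.

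Genes of microglia and their activation also differed within type labels. Ccl4, Il1a, Cd14, Apoe, Ctss and Cxcl10 were higher by at least 1 in all 9 labels and Spi1 in 8, where each label holds 1 to 7 of the 25 cells. Ccl4 differed by 3.72 in Cajal Retzius, the least, and by 14.07 in MGE-derived 1, the most. Among the 5 and 12 MGE-derived 2 cells 38 of 40 other microglia genes and 23 of 24 chemokine, complement and interferon genes were higher, with medians of 4.85 and 6.92. All genes had a median of 0.82 there, with 44.7% higher and 4.08% lower. There 9 of the 12 genes of interneurons of the medial ganglionic eminence were lower and 1 higher, with a median of -2.07. Lhx6, the transcription factor that defines those interneurons, had 9.35, 41.1 and 435 CPM in the 5 cells and 32.5, 842 and 1978 CPM in the 12 others of that label (lowest, median, highest), a difference of -2.84 with overlapping ranges. Among the 7 and 10 Undefined cells 33 of 40 and 23 of 24 were higher, with medians of 2.37 and 3.07. All genes had a median of 0.78 there, with 43.4% higher and 2.43% lower.

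No doublet caller was run, since each cell was picked by pipette. As a count chosen after values were seen, 13 of the 25 cells (52%, exact 95% interval 31.3% to 72.2%) had at least 10 counts in at least 3 GABAergic and in at least 3 glutamatergic genes, against 13 of the 89 others (14.6%, 8.01% to 23.7%). Of the 15 of the 25 cells with no more genes than the highest of the others (9510), 6 did (40%, 16.3% to 67.7%). The number of genes per cell moves with this count, and its part in it was not tested.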

How the data were processed

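Of 162 cells, the authors deposited raw counts of reads per gene; the submitters' processing notes name Trimmomatic, STAR, featureCounts and GRCm38, with no version or strand setting. Rows by Ensembl identifier were used, with symbols from GENCODE M21 (22570 of 22880 identifiers). The authors also deposited a normalized signal table, in which 99.8% of values were within 0.1% of counts over 1 factor per cell; it served as an alternative.

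Members and gene lists were chosen with earlier results of these data known. CPM are counts over the cell's total. Genes with a count in 10% of either group's cells were compared, and called at a difference of 1 in mean log2(CPM + 1). No p-value was computed. Genes were named as higher by a count in at least 50% of the 25 cells, 20 CPM pooled, 2-fold by summed counts and mean CPM and without the highest cell, then the 15 with the largest difference; lower ones likewise with groups exchanged (10). Up to 4 genes per list with the largest absolute difference, the rule genes and 8 genes by correlation were also named; genes outside this were chosen after their values were seen. Exons of Arhgdib, Arpc1b, Cnp, Csf1r, Ctsz, Cx3cr1, Cxcl10, Dab2, Dusp1, Gas6, Il1a, Jun, Junb, Nefl, Nefm, Nrxn2, Nrxn3, Olig1, Rab3b, Reln, Sec61a2, Selenop, Slc7a4, Stab1 and Vps9d1 overlap a gene on the opposite strand, whose reads cannot be told apart where strand was not used. The comparison was tested on simulated data in which each gene's values were shuffled over the cells. That test leaves out the gap in genes per cell, so it says nothing about its part. Python 3.11.15 with numpy 2.4.6, pandas 2.3.3, scipy 1.17.1 and matplotlib 3.10.9 was used.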

Additional observations from a re-analysis of the deposited data

Results flagged for a closer look

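Single cells outside the comparison held counts of the rule genes. Nex line Glutamatergic 1 cell 6, which passed, had 1029 CPM in all, of which 8142 counts were C1qb and 3384 C1qc, with none of the other 4 rule genes and counts in 5 of the 40 other microglia genes. A failed Htr3a line Undefined cell 3 had 577 CPM, all of Csf1r, and 6 of the 40. Nex line Undefined cell 4 had 37.8 CPM, nearly all C1qc, and Nex line Glutamatergic 1 cell 1 and Glutamatergic 2 cell 1 had 22.5 and 8.72 CPM, all Csf1r. In the Lhx6 line Undefined cell 1 had 7.48 CPM and 12 of the 40 other genes, MGE-derived 1 cell 1 had 8.59 CPM and the failed MGE-derived 2 cell 1 had 7.63 CPM. These 8 cells had 1 or 2 rule genes at 10 counts.

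Sets of 4 to 10 cells of 1 label and group were each compared by gene number and by the summed microglial and pan-neuronal levels. Of these 24 comparisons, which reuse the same sets, 3 had a cell beyond Dixon's 95% critical value, which chance gives in about 1 of 20. All 3 are among the 89 other cells of the line. MGE-derived 1 cell 11 had 7455 genes, the nearest of the other 9 having 4702. Glutamatergic 2 cell 8 had a summed level of the other microglia genes of 5.85 on the log2(CPM + 1) scale, with the nearest at 7.08, and CGE-derived cell 1 a summed pan-neuronal level of 11.44, with the nearest at 12.48.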

How the results depend on the processing

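The 25 cells were the same number with 5 counts in place of 10 and ranged between 18 and 29 under the other limits of the rule. The medians of the other microglia and pan-neuronal lists moved by less than 1 SD between the 25 cells under every alternative run, at 1.53 to 5.11 and -0.76 to 0.10. The 37.8% of genes higher were 8.01% with a pseudocount of 10 CPM, 15.7% by summed counts and 10.8% in cells with 6500 to 9500 genes. The 0.115% lower were 0.038%, 11.7% and 14.5% under those 3. They were 4.08% among MGE-derived 2 cells, 0.709% with at least 5 rule genes, 0.445% with 10 CPM in place of 10 counts, 0.243% against others in the same range of genes, 0.231% with the authors' normalized values and 0.186% as a weighted mean within labels. They were 0.75% without titles eH89 to eH108, 0.358% without the 5 cells under 100 CPM of rule genes and 0.357% without Undefined cells. The share of MGE-derived labels was 9.09% without titles eH89 to eH108. The cause of these changes was not tested. Titles, 6500 to 9500 genes, 100 CPM and Undefined cells were alternatives chosen after seeing the data.

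Single genes turned as follows. By summed counts Dlx5 was -0.76, Npy -0.26, Prox1 -0.33, Tbr1 -0.26 and Jun -0.45. Among MGE-derived 2 cells Cdc7 was 1.17, Tmem59l 0.15, Sec61a2 1.24, Hbb-bs 0.32, Npy -0.69, Sla -0.042 and Slc17a6 -0.55. Without titles eH89 to eH108 Mrc1 was -0.019 and Dlx5 -0.32. Among cells with 6500 to 9500 genes Tgfbr1 was -0.15, Gas6 -2.03, Nefl -0.76, Nefm -0.86, Reln 0.19, Tbr1 -0.054 and Cnp -1.08. Of 1799 values of 100 named genes under 18 alternatives, 1772 stayed within the spread. The spread was 1 SD of the gene's level between the cells with microglial RNA. It was wide, at 3.60 for Il1a, 3.96 for Ctss and 4.41 for Rsad2 on the log2(CPM + 1) scale. A turn of sign was counted only where the main difference was at least 1 in size. Large changes could thus stay within the spread, and the count cannot show that single genes were stable. The alternative with the table by gene symbol was not run. No paired analysis was possible because the replicate numbers only name cells and no test was made. With reads not marked by molecule, counts are not independent molecules, and with 1 sample a group no error between animals can be given.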
